A study of Rattus norvegicus with 192 samples.

Results

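Collagens, laminins and the proteins that bind them make up the scaffold on which epithelium, endothelium and muscle rest, and 52 genes of this kind were followed after rats had breathed phosphine. Members were taken from the array's platform annotation. A gene was included when a probe set named it alone and its symbol was that of a collagen chain (Col, digits, a, digits), a laminin chain (Lama, Lamb or Lamc with a digit), Hspg2, Hmcn1, Nid1, Nid2 or Fn1. This gave 37 collagens, 10 laminins and the 5 other genes, on 72 probe sets, among 13438 genes named alone on an array with 31042 probe sets tested. The brightest probe set of each gene in each tissue was used.

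Phosphine (PH3) is a fumigant gas that blocks mitochondrial respiration. Adult male Sprague-Dawley rats inhaled 660 ppm PH3 for 25 min by whole-body exposure (16500 ppm x min), and Air rats served as controls. Lung, heart, kidney, brain stem, olfactory bulb and blood were sampled 1, 3, 6 or 24 h later, and 192 arrays from 59 rats formed 48 groups. Of these groups, 46 held 4 rats, Air blood at 24 h held 3 and Air olfactory bulb at 1 h held 5. Each rat gave at most 1 array per tissue, and PH3 and Air rats were different animals. The tissues were pulverised whole, so fewer cells of a type and less RNA per cell cannot be told apart.

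Collagen chains wind in threes into rope-like molecules. Fibrillar collagens (I, II, III, V, XI) bear tension, whereas collagen IV forms the sheet of the basement membrane, the thin layer under epithelia and around vessels, muscle fibres and fat cells. Laminins, made of an alpha, a beta and a gamma chain, form a second sheet that cells grip through integrins and dystroglycan, and nidogens and perlecan (Hspg2) tie the sheets together. In the lung the basement membranes of alveolar epithelium and capillary are fused over the part of the wall through which gas passes.

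The genes for the most widespread collagen IV chains, Col4a1 and Col4a2, lie head to head, so their start sites share a stretch of sequence. On rat assembly GRCr8, RefSeq places their starts 76 bases apart. That gap is printed because both chains are compared below, and the 120 bases before the start sites of Hspg2, Hmcn1 and Lama5 are printed because these genes were lower in the lung. Capitals mark a GC box (GGGCGG or its reverse complement CCGCCC) or a CCAAT box (CCAAT or ATTGG), each searched on both strands.
Col4a1 and Col4a2, gap, chr16:84885521-84885596, plus strand: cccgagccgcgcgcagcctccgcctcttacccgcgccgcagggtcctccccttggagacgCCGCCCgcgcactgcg
Hspg2, chr5:154960726-154960845, plus strand: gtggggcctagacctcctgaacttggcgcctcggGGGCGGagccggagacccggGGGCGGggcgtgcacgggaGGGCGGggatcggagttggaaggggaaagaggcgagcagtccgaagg
Hmcn1, chr13:65634520-65634639, minus strand: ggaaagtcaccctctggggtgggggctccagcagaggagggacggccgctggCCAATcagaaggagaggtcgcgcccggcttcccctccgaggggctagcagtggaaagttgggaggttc
Lama5, chr3:187695975-187696094, minus strand: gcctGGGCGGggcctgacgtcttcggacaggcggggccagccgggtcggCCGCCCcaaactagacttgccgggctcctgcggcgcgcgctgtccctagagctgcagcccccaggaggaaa

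The Hspg2 stretch held 3 GC boxes, Lama5 2, the collagen IV gap 1 and Hmcn1 none but 1 CCAAT box. RefSeq promoter sequences were given for 41 of the 52 members. In the 250 bases before the start, a GC box was found in 23 of the 41 (56.1%) and in 32.4% of all 27457 promoters of that length. A CCAAT box was in 13 (31.7%, against 34.3% of all) and a TATA box (TATAAA or TTTATA) in 5 (12.2%, against 13.1%). These matches are a description of the letters and were not tested.

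Levels in Air rats describe where each gene was read before any exposure enters. Values are log2 intensities, so a difference of 1 is a factor of 2, and the same probe set was used in every tissue. Solid tissues had like array distributions (90th percentile 8.86 to 9.05) but blood arrays did not (7.61 to 8.35), and which arrays were normalized together is not given in the sources used here. No test was made between tissues. Lung was the highest tissue for 22 of 52 members, and in 11 of them every Air lung array lay above every Air array of the other tissues. Heart was highest for 12 (6 without overlap), kidney for 7 (2), blood for 7 (1), olfactory bulb for 3 (2) and brain stem for 1 (0). The same counts were not made over all probe sets, so they cannot be read as particular to these genes.

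**Figure D1:**
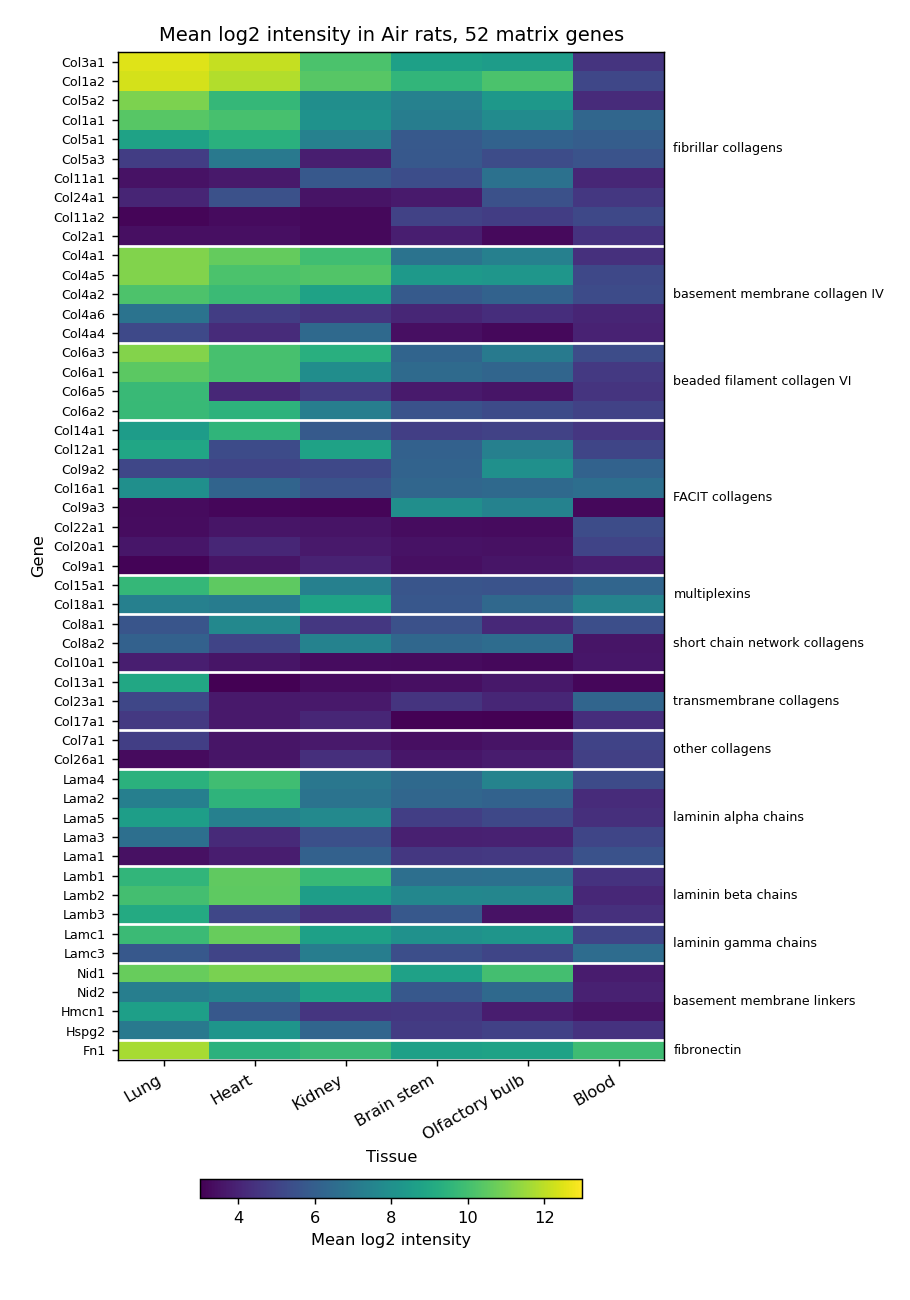
Mean log2 intensity of 52 genes (rows, grouped by role) in Air rats of 6 tissues (columns, 15 to 17 arrays each). Lung and heart columns are brightest, and Col13a1 (9.01) and Col6a5 (9.79) stand out in lung. Blood is dim in many rows but not in Fn1 (9.89) or Col18a1 (7.47), and 21 of the 52 genes lie above its median.

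Among fibrillar collagens, Col3a1, the chain of reticular fibres, read 12.50 ± 0.165 in lung (SD, n = 16), 12.14 ± 0.174 in heart, 10.15 in kidney, 8.68 in brain stem, 8.52 in olfactory bulb and 4.51 in blood. Lung and heart were next to each other and their arrays overlapped, as did those of brain stem and olfactory bulb. Col1a2, the second chain of collagen I, ran from 12.36 in lung to 5.12 in blood. Col1a1, its partner, was 10.41 in lung and 10.09 in heart, with overlap, and 6.32 in blood. Thus the means of these chains of collagens I and III put lung before heart. For Col1a1 the order changed with time on another probe set, the brightest in both tissues. There Air lungs read from 10.49 to 11.58 and Air hearts from 9.36 to 9.87 at 1 and 3 h. At 6 and 24 h Air lungs read from 9.70 to 11.53 and Air hearts from 10.33 to 12.02.

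By mean over all Air rats, Col4a1 and Col4a2 also had lung before heart, with overlap of their arrays. Col4a1 was 11.11 ± 0.171 in lung, 10.62 ± 0.276 in heart, 9.95 in kidney, 7.36 in olfactory bulb, 6.80 in brain stem and 4.37 in blood. Col4a2 was 10.19 in lung, 9.80 in heart, 8.75 in kidney and 5.28 in blood. The lead of lung for Col4a2 was seen at 1 and 3 h alone, with Air lungs from 10.07 to 10.57 and Air hearts from 9.07 to 9.66. At 6 and 24 h Air lungs read from 9.80 to 10.41 and Air hearts from 9.83 to 10.66. Col4a5, an X-linked chain of kidney and lung basement membranes, was 11.11 ± 0.155 in lung, 10.29 in kidney and 10.15 in heart, and the lowest Air lung array was above the highest Air array elsewhere (10.69 against 10.45). Kidney was highest only for Col4a4, a chain of the glomerular filter, at 6.40 against 5.20 in lung, with overlap.

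Several members were lung genes in this set. Col13a1, a transmembrane collagen of cell contacts, was 9.01 ± 0.417 in lung and no higher than 3.64 on average elsewhere. Col6a5, a collagen VI chain, was 9.79 ± 0.382 in lung against 4.75 in kidney, the next tissue. Lamb3, the beta chain of laminin-332 in epithelial anchoring sites, was 9.13 ± 0.186 in lung against 5.74 in brain stem. Hmcn1, hemicentin-1, a large extracellular protein of the fibulin family, was 8.65 ± 0.228 in lung, 5.75 in heart, 4.62 in brain stem, 4.53 in kidney, 3.81 in olfactory bulb and 3.52 in blood. In all 4 the lowest Air lung array was above the highest Air array of any other tissue.

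Muscle-type laminins were highest in heart. Lama2, the alpha chain of the muscle basement membrane, was 9.49 ± 0.206 in heart and 7.32 in lung. Lama4, found around vessels, was 9.94 in heart and 9.38 in lung, with overlap. Lamb1 (10.56), Lamb2 (10.52) and Lamc1 (10.67), chains shared by most laminins, were highest in heart as well, and their blood values were 4.46, 4.11 and 5.05. Lamc3 ran the other way, at 7.22 in kidney, 6.54 in blood and 5.04 in heart. Col15a1, a multiplexin of muscle and vessel basement membranes, was 10.53 in heart against 9.65 in lung, and Col18a1, whose end fragment is endostatin, was 8.82 in kidney against 7.47 in blood.

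The linkers did not share 1 order. Nid1 was 10.97 in heart and 10.96 in kidney, followed by lung (10.69), olfactory bulb (10.01), brain stem (8.73) and blood (3.76), with heart, kidney and lung overlapping. Nid2 was highest in kidney (8.78 ± 0.136) before heart (7.54) and lung (7.26). Hspg2 was 8.21 ± 0.526 in heart, 7.05 ± 0.519 in lung, 6.26 in kidney, 4.95 in olfactory bulb, 4.73 in brain stem and 4.45 in blood. Fn1, fibronectin, was 11.69 ± 0.270 in lung and second highest in blood (9.89 ± 0.381), then 9.76 in kidney, 9.41 in heart, 8.75 in olfactory bulb and 8.70 in brain stem.

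Brain tissues held few of the top values. Col9a3, a collagen attached to fibrils, was 7.93 ± 0.272 in brain stem and 7.43 ± 0.319 in olfactory bulb, which overlapped, and between 3.13 and 3.30 in the other 4 tissues. Col14a1, of the same class, was 9.53 in heart and 8.51 in lung. Col8a1, a short network collagen of vessels, was 7.66 in heart, and Col8a2 7.45 in kidney. Of the dim members, Col23a1 was highest in blood (6.27), Col7a1, of skin anchoring fibrils, was 5.02 in blood and 4.84 in lung, and Col26a1 was 4.91 in blood.

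Within each tissue, limma set the PH3 rats of a time beside the Air rats of that time, and a gene was called when its p-value, adjusted by the Benjamini-Hochberg method over all 31042 probe sets, was below 0.05. Of 1248 such tests of members, 4 were called, all lower in the lung at 3 h. No member was called in the other 23 contrasts. These counts depended on the fit: with the rat as a block over all tissues, lung at 3 h had 1 call and blood had 4, 2, 2 and 4 at 1, 3, 6 and 24 h. That fit pools 1 variance per probe set over all tissues. The members' median SD around group means was 0.517 in blood and from 0.217 to 0.303 in the other tissues. With Air rats of the 3 other times as controls, up to 5 members were called in a contrast, the most in lung at 24 h. The share of all probe sets called in these other fits is not given here, so their counts cannot be set against it. In the fit by tissue that share was 9.89% in lung at 3 h (4.03% lower in PH3), 4.24% in lung at 1 h and 0% in lung at 6 and 24 h. It was 0.915%, 0.00644%, 0% and 0.00644% in heart at 1, 3, 6 and 24 h, and 2.35%, 0.303%, 0.0161% and 0% in kidney. In brain stem it was 0.306%, 0.0161%, 0% and 0.00322%, in olfactory bulb 0.00322% at 1 h and 0% later, and 0% throughout in blood.

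At 3 h in lung, 4 of 52 members stood against a background of 9.89%, so that the share of members called was below that of all probe sets. The members' median effect was -0.04, close to the -0.00 of all probe sets, and 22 of 52 were positive. At an unadjusted p under 0.05 there were 11 members (21.2%) and 24.5% of all probe sets. At the other times and tissues the counts at that level ran from 0 to 11 members. The precision of a single comparison was set by 4 rats a group: the median 95% interval of a member's effect reached 0.30 to either side in lung, 0.34 in kidney, 0.42 in heart and brain stem, 0.39 to 0.41 in olfactory bulb and 0.73 to 0.79 in blood.

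**Figure D2:**
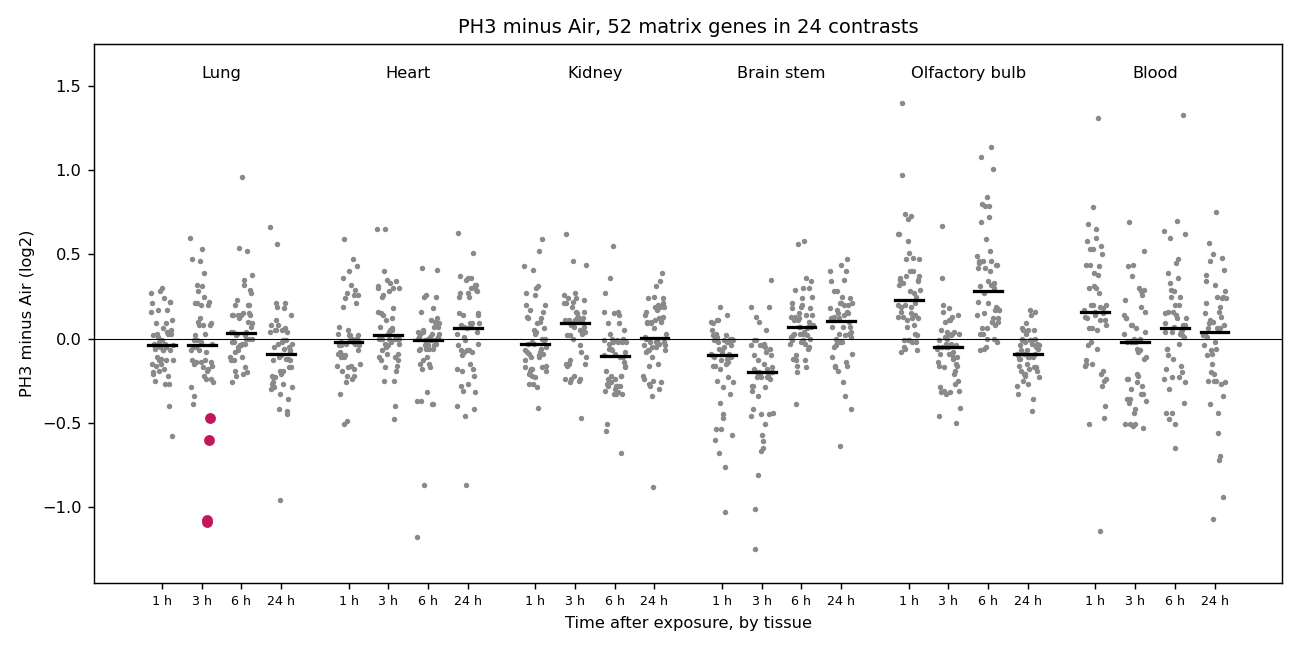
PH3 minus Air (log2, vertical axis) of 52 genes in 24 contrasts (6 tissues by 4 times, horizontal axis). Each point is a gene, black lines are medians, and the 4 large coloured points are the genes called, at -1.09, -1.08, -0.60 and -0.47 in lung at 3 h.

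Of the 4 called members, Hmcn1 fell the most. Its log2 intensities in lung at 3 h were 8.17, 8.95, 8.90 and 8.62 in Air Rat355, Rat365, Rat370 and Rat400 and 7.76, 7.72, 7.08 and 7.71 in PH3 Rat359, Rat361, Rat368 and Rat399. The groups did not overlap, and these 4 PH3 arrays were lower than every other lung array of the study, the next being 7.97 in a PH3 rat at 6 h. The difference was -1.09 ± 0.191 (SE; 95% interval -1.48 to -0.70; limma adjusted p = 0.00127). At 1, 6 and 24 h it was 0.17, -0.20 and -0.45, none called. Hmcn1 was also the member whose effect at 3 h came nearest to differing between the 6 tissues (adjusted p = 0.0996), with -0.48 ± 0.336 in heart, -0.33 in blood, -0.23 in brain stem, 0.05 in kidney and 0.04 in olfactory bulb.

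Hspg2, the heparan sulfate proteoglycan perlecan, differed by nearly the same amount, but through the Air arrays of that time. Air Rat355, Rat365, Rat370 and Rat400 read 8.24, 7.54, 7.41 and 7.54, and the PH3 rats 6.55, 6.76, 6.12 and 6.96. The groups did not overlap, and the difference was -1.08 ± 0.236 (95% interval -1.56 to -0.60; limma adjusted p = 0.00538). All 4 Air values at 3 h were above the 12 Air values of the other times, which ran from 6.03 to 7.34, whereas the PH3 values lay inside that range. When the 12 Air arrays from 1, 6 and 24 h served as the control, the same PH3 arrays gave -0.25 (adjusted p = 0.653), and Hmcn1 gave -1.08 (adjusted p = 4.2e-04). In a fit of all tissues with the rat as a block the adjusted p was 0.0602 for Hspg2 and 0.00364 for Hmcn1, so of the 4 calls that of Hmcn1 alone was kept. The effects were the same there (-1.08 and -1.09). The block (consensus correlation 0.016) and the variance pooled over tissues came in together in that fit and were not told apart.

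Lama3, the alpha chain of laminin-332, read 6.48, 6.81, 7.06 and 6.80 in Air and 5.89, 6.38, 5.74 and 6.73 in PH3. One PH3 rat lay above the lowest Air rat, so the groups overlapped, and the difference was -0.60 ± 0.182 (limma adjusted p = 0.0338). The call was lost without Air Rat365 (adjusted p = 0.063), Rat370 (0.092) or Rat400 (0.057), without PH3 Rat359 (0.11) or Rat368 (0.157), and with the rat as a block (0.395). It was -0.40 at 1 h, where the groups did not overlap but the adjusted p was 0.283. Lamb3, which pairs with Lama3 in that laminin, differed by -0.24 ± 0.102 at 3 h and was not called (adjusted p = 0.135).

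Lama5, the alpha chain of laminins under mature epithelium and endothelium, read 9.42, 8.97, 8.73 and 8.93 in Air and 8.32, 8.47, 8.56 and 8.79 in PH3. The groups overlapped, with 8.79 above 8.73, and the difference was -0.47 ± 0.149 (limma adjusted p = 0.0402). The call was lost without Air Rat355 (adjusted p = 0.179), Rat365 (0.0609) or Rat400 (0.0503), without PH3 Rat359 (0.122), Rat361 (0.0966) or Rat368 (0.0843), and with the rat as a block (0.547). Its 2 other probe sets differed by -0.01 and 0.00, so the gene's probe sets disagreed. Against Air of the other 3 times the difference turned to 0.09 (adjusted p = 0.837). A dimmer probe set of Lama4 was lower by -0.58 ± 0.147 (adjusted p = 0.0126), while the brightest probe set of Lama4, used above, was at 0.22.

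**Figure D3:**
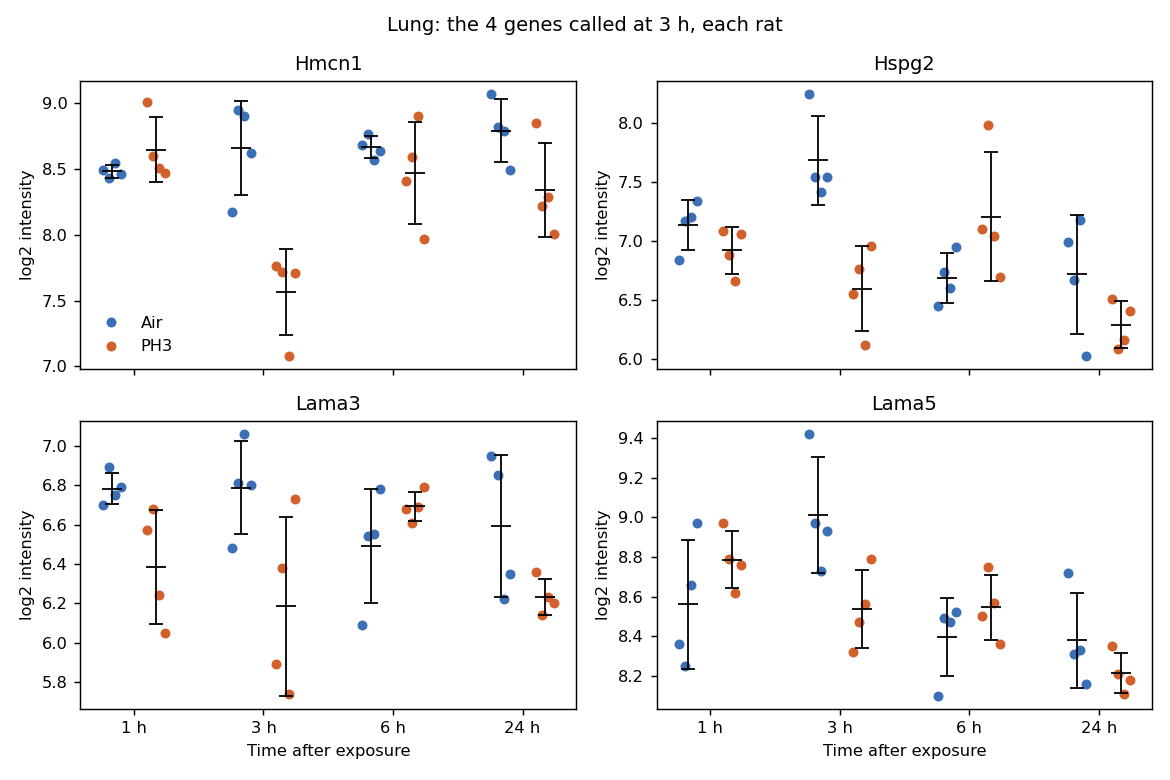
Lung log2 intensity (vertical axes) of Hmcn1, Hspg2, Lama3 and Lama5 in Air (blue) and PH3 (orange) rats at 1, 3, 6 and 24 h. Points are rats, 4 a group, with mean and SD. The PH3 3 h group of Hmcn1 (7.08 to 7.76) is the lowest of its panel, and the Air 3 h group of Hspg2 (7.41 to 8.24) lies above all other points of its panel but 1 PH3 array at 6 h (7.98).

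By role, the 4 lower genes were 2 of 4 linkers and 2 of 5 laminin alpha chains, beside 9.89% of all probe sets called and 4.03% lower. Roles of 4 or 5 genes are too small to set against that share. In the fit of all tissues, with the rat as a block and a pooled variance, only the call of Hmcn1 was kept. The remaining linkers were -0.26 ± 0.144 for Nid2 and -0.03 for Nid1. None of 3 laminin beta chains, 2 gamma chains, 5 collagen IV chains or 10 fibrillar collagens was called at 3 h. Col4a1 was at 0.08 ± 0.0968 (95% interval -0.12 to 0.27), Col4a2 at -0.07 ± 0.145, Col1a1 at 0.02 ± 0.239, Col3a1 at 0.10 ± 0.100 (-0.11 to 0.30) and Fn1 at -0.19 ± 0.179 (-0.56 to 0.17). The 8 collagens attached to fibrils had a median of -0.11, with 1 positive. Only 3 of these 8 read above the median of all probe sets in Air lung, so the others were dim.

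Other measures moved with the lung comparison at 3 h. The 3 prime index, the mean log2 excess of 3 prime over 5 prime control probe sets (for Gapdh and for beta-actin) and a sign of how whole the RNA was, averaged 0.445 ± 0.0776 in Air and 0.178 ± 0.0651 in PH3. At 1, 6 and 24 h it averaged 0.217, 0.191 and 0.139 in Air lungs and 0.181, 0.254 and 0.157 in PH3 lungs. The Air group at 3 h was thus the one that stood out, and the PH3 group lay among the others. With this index as a covariate, no member was called: Hmcn1 had -0.78 (adjusted p = 0.314), Hspg2 -0.48 (0.605), Lama3 -0.36 (0.674) and Lama5 -0.23 (0.75). The mean of 6 neutrophil markers ran from 4.80 to 6.05 in Air and from 5.86 to 6.91 in PH3, with 3 called, and that of 6 lymphocyte markers from 6.82 to 7.47 and from 7.45 to 7.70, with 2 called. Their part in the result was not tested. Lung epithelium markers, 0 of 6 called, ran from 12.61 to 12.81 and from 12.70 to 12.81, and 11 endothelial markers, 1 called, from 9.99 to 10.25 and from 10.11 to 10.24.

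Whether the effect of PH3 changed between the 4 times was tested directly in each tissue. In lung 3 members were called, Col4a2 (limma F test, adjusted p = 0.0233), Hspg2 (0.0243) and Hmcn1 (0.026), against 4.82% of all probe sets. Without PH3 Rat368 of 3 h 1 member was called. The Air groups of Col4a2 differed between times as well, as given below. Its effects were -0.19 ± 0.145 at 1 h, -0.07 at 3 h, 0.54 at 6 h and -0.42 at 24 h. At 6 h its Air values were 10.41, 9.86, 9.86 and 10.11 and its PH3 values 10.65, 10.87, 10.40 and 10.48. Hspg2 likewise had its positive effect at 6 h (0.52 ± 0.236, adjusted p = 0.983). No member was called in the other tissues, where the share of all probe sets was 0.116% in heart, 0.49% in kidney, 0.0709% in brain stem and 0% in blood and olfactory bulb.

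Air rats killed at different times were not alike either. In lung 7 members differed between the Air groups (12.2% of all probe sets), led by Lamb2 (limma adjusted p = 0.0108), Lama5 (0.0134), Hspg2 (0.0139), Col16a1 (0.025) and Col1a1 (0.0257). Without Air Rat355 of 3 h 3 members were called, and without Air Rat502 of 24 h 4. Of the genes lower at 3 h, Hspg2 and Lama5 were thus among those with uneven Air groups, and Hmcn1 and Lama3 were not called there. Col4a2, whose effect changed between times, was another of the 7 (limma adjusted p = 0.0283). Its Air values ran from 10.31 to 10.57 at 1 h and from 9.80 to 10.05 at 24 h. How far its Air groups carried that change was not tested. Heart had 1 member with uneven Air groups, Col1a1 (adjusted p = 0.0111, against 0.548% of all). On the probe set brightest in heart, Col1a1 ran from 9.59 to 9.87 in Air rats at 1 h, from 9.36 to 9.55 at 3 h, from 10.35 to 12.02 at 6 h and from 10.33 to 11.44 at 24 h. Without PH3 Rat368 or Rat399 of 3 h the count in heart was 2. PH3 hearts showed the same split by hour, from 8.70 to 10.07 at 1 and 3 h and from 10.14 to 11.90 at 6 and 24 h. Brain stem had Col5a3 (0.0315) and Col11a2 (0.0329) against 7.8% of all probe sets, and 0 members without Air Rat335 or Rat502 of 24 h or 1 without Air Rat352 of 1 h, Rat328 of 24 h, or Rat355 or Rat370 of 3 h. Kidney (0.00322%), olfactory bulb (1.39%) and blood (0%) had none.

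Tissues were compared at each time by a heterogeneity test of the 6 effects. Lamc3, the gamma chain of a laminin in kidney, retina and brain, was the only member called, at 1 h (adjusted p = 0.0337, against 3.09% of all probe sets). Its difference was -0.58 ± 0.208 in lung, -0.57 ± 0.172 in brain stem, -0.24 ± 0.351 in blood, -0.19 ± 0.275 in kidney, -0.04 ± 0.188 in heart and 0.47 ± 0.170 in olfactory bulb. Lung values were 6.12, 6.01, 6.03 and 6.28 in Air and 5.79, 5.08, 5.49 and 5.75 in PH3, without overlap. Within a tissue none of these was called, and the call between tissues was lost without the arrays that stood apart. At 3, 6 and 24 h no member was called, and 0.303%, 0.00644% and 0% of all probe sets were.

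Olfactory bulb members leaned upward at 1 and 6 h without a call. Their median effect was 0.23 at 1 h with 43 of 52 positive, and 0.28 at 6 h with 46 positive, whereas the medians of all probe sets were 0.00 and -0.02. At an unadjusted p under 0.05 there were 11 (21.2%) and 9 (17.3%) members, all higher in PH3, beside 5.15% and 9.84% of all probe sets. Col1a1 read 7.64, 10.40, 7.06 and 11.43 in PH3 Rat482, Rat483, Rat506 and Rat508 at 1 h and from 7.32 to 8.24 in 5 Air rats (1.40 ± 0.754, adjusted p = 0.945). At 6 h it read 11.63, 7.66, 8.66 and 8.80 in PH3 and 9.80, 8.31, 7.04 and 7.30 in Air. Fn1 had the smallest adjusted p at 6 h (1.01 ± 0.334, adjusted p = 0.473), with PH3 values of 9.81, 8.64, 10.99 and 8.78.

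Bone markers moved with those arrays. The list of 10 measured genes, osteocalcin (Bglap) and sialoprotein (Ibsp) among them, was chosen after the values had been seen. Its mean was 8.12 in PH3 Rat381 at 6 h, 7.71 in Rat508 and 6.83 in Rat483 at 1 h, and 6.16 in PH3 Rat512 at 3 h, where Col1a1 was 10.45. The median over olfactory bulb arrays was 4.69. All 4 were PH3 arrays and had the highest Col1a1 of the tissue (10.40 to 11.63), so smaller effects without them follow in part from the choice. At 1 h only PH3 Rat482 and Rat506 were then left, and at 6 h PH3 Rat387, Rat391 and Rat522. What made the members lean upward was not tested. Without these 4 arrays the members' median effect was 0.02 at 1 h (27 of 52 positive) and 0.10 at 6 h (42 positive). At an unadjusted p under 0.05 there was then 1 member at 1 h but still 9 at 6 h. The effect on Col1a1 was -0.38 ± 0.497 at 1 h and 0.26 ± 0.454 at 6 h. The olfactory neuron markers were from 8.20 to 8.36 in PH3 rats at 1 h and from 8.07 to 8.34 in Air rats.

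**Figure D4:**
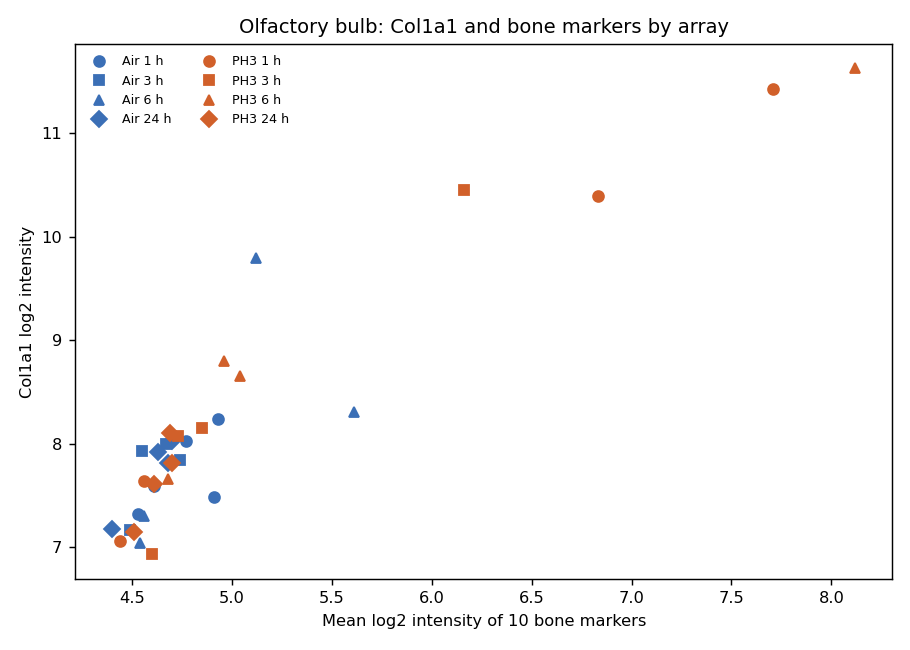
Col1a1 log2 intensity (vertical axis) against the mean log2 intensity of 10 bone markers (horizontal axis) in 33 olfactory bulb arrays, by exposure (colour) and time (symbol). The 4 arrays with a bone mean above 6 are PH3 arrays, and their Col1a1 lies between 10.40 and 11.63.

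Brain stem members leaned downward at 3 h. Their median was -0.20, with 6 of 52 positive, 8 (15.4%) at an unadjusted p under 0.05, all lower, and none called (smallest adjusted p = 0.525, Lama4). At that level there were 6.11% of all probe sets. Col1a1 was 7.70, 8.55, 7.59 and 7.31 in Air and 6.65, 6.05, 6.47 and 6.97 in PH3, without overlap (-1.25 ± 0.515, adjusted p = 0.774). Fibroblast markers moved the same way, with means from 7.35 to 7.68 in Air and from 6.45 to 7.30 in PH3 over 7 genes, 0 called, as did 8 smooth muscle and pericyte markers, from 6.09 to 6.67 and from 5.81 to 6.19. Markers of leptomeninges and choroid plexus, 7 genes, did not. Their means were 6.31, 7.51, 6.65 and 7.98 in Air and 7.80, 5.61, 7.87 and 8.14 in PH3. The part of these 3 lists was not tested. Against Air of the other 3 times the median was -0.04.

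Collagen II and collagen X, made by cartilage cells, were near the floor of the array in the solid tissues except in single lung and heart arrays. In lung Col2a1 was 6.68 in PH3 Rat341 at 24 h, 6.46 in Air Rat353 and 5.87 in PH3 Rat351 at 1 h, and 5.22 in Air Rat340 at 24 h. Col10a1 was 8.06, 6.57, 6.83 and 5.41 in the same arrays. The other lung arrays were at most 4.35 for Col2a1 and 4.81 for Col10a1. In heart, Air Rat382 at 6 h had 7.07 and 8.11, and PH3 Rat359 at 3 h had 5.43 and 5.72. The heart of Rat382 also had the highest lung epithelium mean of all hearts, 6.35 against a median of 3.92. Both exposures held such arrays, and neither gene was called in any contrast. In kidney, brain stem and olfactory bulb Col2a1 was at most 3.57, 4.65 and 3.89, and Col10a1 at most 4.14, 3.66 and 3.90. Blood was less even for Col2a1, from 3.07 to 6.37 with a median of 4.45, and there it was the most variable member (SD around group means 0.822). Col10a1 in blood lay between 3.03 and 4.12.

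In 4 solid tissues Col4a5 was low in the same animal. In PH3 Rat341, killed at 24 h, it was 7.27 in lung, 6.76 in heart, 6.73 in kidney and 6.25 in brain stem. In the other 31 rats of each tissue it ran from 10.69 to 11.35 in lung, from 9.62 to 10.42 in heart, from 10.14 to 10.45 in kidney and from 7.81 to 8.66 in brain stem. The tissues were thus low together by -3.22 on average against the tissue medians. The array reads Col4a5 by 1 probe set, whose probes were not checked against the sequence of this rat, so the low values are those of that probe set. Its head-to-head partner Col4a6 lay within the range of the other rats in all 4 tissues, at 6.70 in lung (others 6.19 to 7.47). Col4a1 was within that range in lung, heart and kidney but above it in brain stem, 7.69 against at most 7.37. Col4a4 was above it in heart (5.10) and within it in the other 3.

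Through this rat, Col4a5 had the lowest effect of all members at 24 h in 4 tissues, -0.96 in lung, -0.88 in kidney, -0.87 in heart and -0.64 in brain stem. None was called, and without Rat341 they were -0.00 ± 0.0983, -0.01 ± 0.0797, -0.01 ± 0.135 and -0.12 ± 0.138. Blood says little on this animal, since Col4a5 averaged only 5.16 in Air blood, near the median of 5.05 of all probe sets. A fall of the size seen in the 4 tissues could hardly show at that level. There Col4a5 was again the lowest member at 24 h, at 5.23, 5.18, 4.14 and 4.33 in PH3 (the last being Rat341) and 5.59, 6.08 and 5.70 in Air. The groups did not overlap, but the difference of -1.07 ± 0.424 was not called (limma adjusted p = 0.765), and without Rat341 it was -0.94 ± 0.455. Over 28 rats with at least 4 solid tissues, 59 of 31042 probe sets were more than 1 above or below the tissue median in every solid tissue of some rat. Of the 28 rats, 26 had at least 1 such probe set, and Rat357 had 20. In Rat341 there were 6 such probe sets, among them Col4a5 and Fam111a, which was higher. Col4a5 was the only such member in any rat. These patterns were looked for after the values had been seen.

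**Figure D5:**
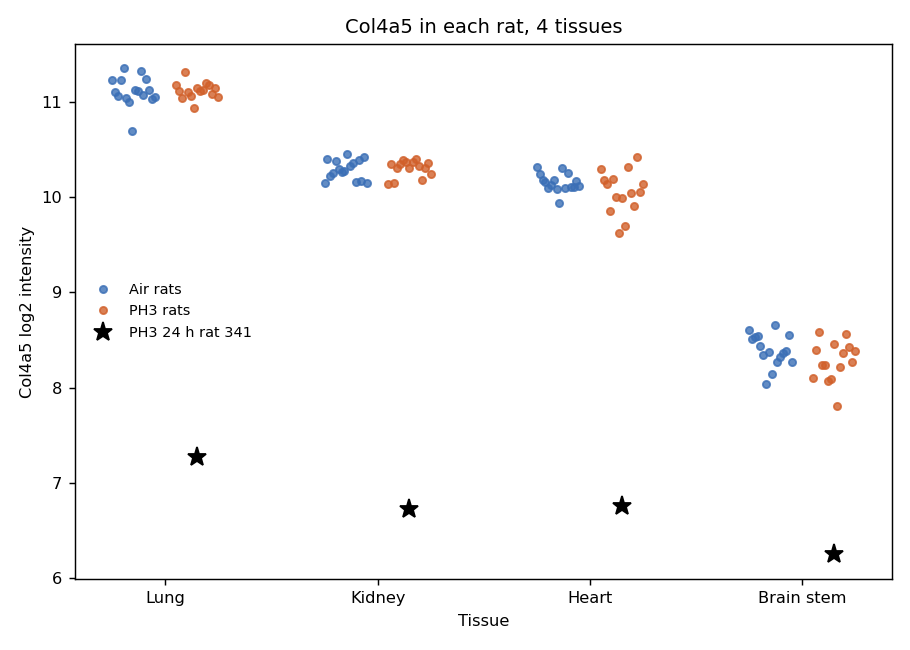
Col4a5 log2 intensity (vertical axis) in every rat of 4 tissues (horizontal axis), Air in blue, PH3 in orange and PH3 Rat341 as a star. The star lies at 7.27, 6.73, 6.76 and 6.25 in lung, kidney, heart and brain stem, below all other points of its column.

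Chains that assemble together could be followed over the rats of a tissue after group means were removed. Collagen I chains moved together most clearly in olfactory bulb, brain stem, kidney and heart. For Col1a1 and Col1a2 Pearson's r was 0.95 in olfactory bulb (33 rats; Spearman's rho 0.92), 0.87 in brain stem (32 rats; 0.80), 0.86 in kidney (0.84), 0.82 in heart (0.81) and 0.42 in lung (0.47), and 0.21 in blood (31 rats; 0.27). Permutation p-values adjusted over 24 relations were 3.0e-05 in the first 4, from the smallest p that 100000 resamples can give (1.0e-05), for r and rho alike. They were 0.0228 and 0.0123 in lung and 0.335 and 0.179 in blood. The permutations here and below do not allow for the group means taken out, so their p-values are too small. Those near 0.05, as in lung, cannot be relied on. Without the 2 rats farthest from the median r was 0.93, 0.77, 0.82, 0.74, 0.28 and 0.26, so the lung value fell most. In olfactory bulb r was 0.81 without the 4 arrays high in bone markers.

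Col1a1 and Col3a1, which share fibrils, had r of 0.80 in brain stem, 0.78 in kidney, 0.68 in heart, 0.56 in olfactory bulb, 0.47 in lung and -0.04 in blood. Spearman's rho was 0.75, 0.83, 0.61, 0.52, 0.43 and -0.06. The adjusted permutation p was 3.0e-05 or 4.8e-05 for r in brain stem, kidney and heart, 0.0011 in olfactory bulb, 0.011 in lung and 0.838 in blood, and 3.0e-05, 3.0e-05, 6.7e-04, 0.00393, 0.0223 and 0.741 for rho. Without the 2 farthest rats r was 0.64, 0.68, 0.58, 0.34, 0.29 and -0.00.

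Col4a1 and Col4a2, which share the gap printed above, moved together in brain stem (r = 0.82, rho = 0.75) and heart (r = 0.80, rho = 0.76) and less so in olfactory bulb (r = 0.39, rho = 0.52). In kidney r was 0.06 (rho = 0.08), in lung 0.13 (rho = 0.11) and in blood 0.17 (rho = 0.23). Adjusted permutation p-values were 3.0e-05, 4.8e-05 and 0.0359 for r in the first 3 tissues and 0.791, 0.543 and 0.396 in the others, and 5.3e-05, 3.0e-05, 0.0039, 0.697, 0.607 and 0.253 for rho. Without the 2 farthest rats r was 0.77, 0.74, 0.42, 0.09, 0.08 and 0.21. In olfactory bulb it was 0.25 without the arrays high in bone markers. The tissues were not compared by a test of their own.

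Lamb1 and Lamc1, common to most laminins, had r of 0.81 in heart, 0.59 in lung, 0.57 in brain stem, 0.52 in olfactory bulb, 0.43 in kidney and -0.18 in blood, with rho of 0.71, 0.55, 0.48, 0.45, 0.42 and -0.17. Adjusted permutation p-values for r were 3.0e-05, 6.5e-04, 0.00127, 0.00312, 0.021 and 0.396, and for rho 3.0e-05, 0.00229, 0.011, 0.0143, 0.0224 and 0.394. Without the 2 farthest rats r was 0.71, 0.48, 0.45, 0.31, 0.45 and -0.44, and in olfactory bulb it was 0.14 without the arrays high in bone markers. The median r over all pairs of members was 0.30 in olfactory bulb, 0.22 in brain stem and 0.16 in heart, and it was 0.10 for kidney, 0.07 for blood and 0.04 for lung. All pairs of a tissue share their arrays, and array quality was not removed.

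Genes that act on the matrix were called in lung, heart and kidney. Of 22 measured proteases and inhibitors, lung at 1 h, where 4.24% of all probe sets were called, had 4 higher and 2 lower, led by Adamts9 (1.72 ± 0.204, limma adjusted p = 6.3e-06), Plat, the tissue plasminogen activator (1.06), Plau, urokinase (-0.90), and Adamts1 (0.88). In heart at 1 h Adamts9 rose by 1.59 ± 0.266 (adjusted p = 0.00187) and Adamts5 fell by 1.00, and in kidney Adamts4 rose by 1.09 ± 0.220 (adjusted p = 0.00481). These enzymes cut versican and aggrecan. That was 2 of 22 in heart, beside 0.915% of all probe sets, and 1 of 22 in kidney, beside 2.35%. At 3 h in lung, with 9.89% of all probe sets called, 5 of the 22 were higher, including Mmp8, neutrophil collagenase (1.36), Timp1 (0.64), Plat (0.61) and Timp3 (0.60). The neutrophil markers given above include Mmp8.

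Receptors and signals were called in few places. Of 18 matrix receptors, 2 fell in lung at 3 h, Itgb4 (-0.47 ± 0.151, adjusted p = 0.048) and Itga6 (-0.34 ± 0.107, adjusted p = 0.0426), which together form the integrin that binds laminin-332, and Itgb1 rose by 0.18. These 3 of 18 stood beside 9.89% of all probe sets, 4.03% being lower. Itga7, a laminin receptor of muscle, rose by 1.09 in lung at 1 h, and Itgb3 by 1.05 in kidney at 1 h. Of 16 genes of TGF-beta signalling, heart at 1 h had Ccn1, a matricellular protein, higher by 3.00 ± 0.697 (adjusted p = 0.0305) and Bambi, a decoy receptor, lower by -1.16. Kidney at 1 h had Ccn2 higher by 1.28 and lung at 1 h Bambi lower by -0.84. In lung at 3 h Tgif1, a repressor, rose by 0.30.

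Collagen processing and the other matrix proteins were called in lung alone. The share of all probe sets there was 4.24% at 1 h and 9.89% at 3 h, as above. Of 19 processing genes P4ha1, a collagen prolyl hydroxylase, fell by 0.38 at 1 h and by 0.41 at 3 h, Serpinh1, the collagen chaperone HSP47, fell by 0.27 at 1 h, and Lox, which cross-links collagen, rose by 0.91 ± 0.195 at 3 h (adjusted p = 0.00481). Of 20 other matrix proteins, Dcn, decorin, rose by 1.18 ± 0.277 (adjusted p = 0.0081), Fbln1 rose by 0.54, and Agrn, agrin, a heparan sulfate proteoglycan of basement membranes, fell by 0.47 ± 0.0966 (adjusted p = 0.00347), all at 3 h. No gene of the 5 lists was called in brain stem, olfactory bulb or blood. The differences between tissues were not tested for these lists, and in lung at 3 h the 3 prime index differed as given above.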

How the data were processed

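RNA from flash-frozen pulverised tissue or stabilised blood was amplified from the 3 prime end and hybridised to 1-colour rat arrays. The authors deposited log2 intensities. Per the submitters' processing notes, Partek and its RMA procedure made them. Settings, versions and the set of arrays normalized together were not given in the sources used here. No value was renormalized. Genes were named from the platform annotation, and 97 control probe sets were left out of all tests.

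Each tissue was fitted with limma 3.58.1 (R 4.3.3), 1 coefficient for each of its 8 groups, two-sided, with Benjamini-Hochberg adjustment over 31042 probe sets and calls below 0.05. F tests in the same fit compared effects, or Air groups, between times. A Welch heterogeneity test compared the effects of the 6 tissues and treats tissues of 1 rat as independent. Correlations used residuals from group means and 100000 permutations (numpy 2.4.6), which do not allow for the group means taken out. Scripts were tested on simulated data. The number of rats, not depth, limits precision on arrays, and p-values measure the spread between rats.

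The members, the gene lists and the tests were chosen with earlier results of these data known. Named genes were every member called, up to 5 members of each F test by p, 2 members of each role with the widest range of Air means, Hspg2, Hmcn1, Nid1, Nid2, Fn1, Col4a1, Col4a2, Col1a1 and Col3a1, and up to 4 called genes of each other list in a contrast. Others, among them Col4a5 at 24 h, Col2a1, Col10a1, Col1a2, Lamb3, Col4a4, Fam111a and single-array values, were chosen after their values were seen. Rat numbers link tissues of 1 animal, so a fit of all tissues with the rat as a random block was an alternative (consensus correlation 0.016, from 5000 probe sets). Other alternatives were array medians subtracted, only the brighter probe sets, another variance model, the 3 prime index as covariate, Air of other times, other probe sets, and arrays left out singly or because they stood apart (mean correlation with their tissue more than 3 scaled MAD below the median). Leaving out arrays high in bone or cartilage markers was added after the data were seen. The planned comparison with protein length was not made.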

Additional observations from a re-analysis of the deposited data

Results flagged for a closer look

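The effect of PH3 in lung differed between the times for Col4a2 (F = 7.98, adjusted p = 0.0233), Hspg2 (F = 7.87, adjusted p = 0.0243) and Hmcn1 (F = 7.73, adjusted p = 0.026) by limma's F test. At 1 h the effect on Lamc3 differed between the tissues (F = 4.69, adjusted p = 0.0337). These were 3 and 1 of 52 members, beside 4.82% and 3.09% of all probe sets. None of these calls was kept without arrays that stood apart.

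Single arrays stood far from their group by Dixon's test, which chance passes in about 5% of groups, and 16 of 112 groups examined held such an array. Of these 16, 12 were groups of Col4a5, Col2a1 and Col10a1, genes chosen after their single-array values had been seen, so the count cannot be read against that share. In PH3 Rat341 at 24 h Col4a5 was 7.27 in lung (others 11.04 to 11.17), 6.76 in heart (10.14 to 10.29) and 6.73 in kidney (10.14 to 10.35). The same rat had 6.68 for Col2a1 in lung (others 2.84 to 3.31), 8.06 for Col10a1 in lung (3.30 to 3.95) and 3.07 for Col2a1 in heart (3.35 in each of the others). Air Rat353 at 1 h had 6.46 for Col2a1 (2.98 to 3.15) and 6.57 for Col10a1 (3.12 to 3.62) in lung. In heart, Air Rat382 at 6 h had 7.07 for Col2a1 (3.08 to 3.31), 8.11 for Col10a1 (3.13 to 3.23) and 10.25 for Col4a5 (10.09 to 10.11), and PH3 Rat359 at 3 h had 5.43 for Col2a1 (3.04 to 3.21).

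Of the genes called in lung at 3 h, Hmcn1 was 7.08 in PH3 Rat368 (others 7.71 to 7.76) and Hspg2 8.24 in Air Rat355 (7.41 to 7.54). Without these arrays the differences were -0.93 and -0.89, both still called (limma adjusted p = 0.011 and 0.0292). Lama5 was 8.10 in Air Rat377 at 6 h in lung (8.47 to 8.52), and Col1a1 9.59 in Air Rat352 at 1 h in heart (9.86 to 9.87).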

How the results depend on the processing

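In the 23 contrasts with no member called, 11 of 402 recomputed counts were above 0. In lung at 3 h, where 4 were called, 6 of 18 recomputed counts moved by more than a factor of 1.5. There the count was 2 with the 2 groups of that time alone, 0 with the 3 prime index as covariate, 1 against Air of the other 3 times, 1 without arrays that stood apart, and from 2 to 5 when 1 array was left out. With the rat as a replicate block over all tissues, lung at 3 h had 1, and blood had 4, 2, 2 and 4 at 1, 3, 6 and 24 h in place of 0; this fit pools 1 variance per probe set over all tissues. The numbers pair tissues of 1 animal, and this fit changed no other count. The share of all probe sets called is not given here for this fit or the next. Against Air of the other 3 times, heart had 3 at 1 h and 1 at 3 h, kidney 1 at 1 h, lung 1 at 1 h and 5 at 24 h, and olfactory bulb 1 at 6 h, each reported as 0. Blood at 1 h ranged from 0 to 1 over single arrays left out (1 without PH3 Rat351). Lama5 in lung at 3 h turned from -0.47 to 0.09 against Air of the other times. Hspg2 gave -0.87 (adjusted p = 0.118) without arrays that stood apart.

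Members whose effect differed between times in lung numbered 1 with the 3 prime index, 0 without arrays that stood apart and from 1 to 4 over arrays left out. Those whose Air groups differed numbered 0 in lung and 0 in brain stem with the index and 2 in heart. Without arrays that stood apart they were 2 in lung and 2 in heart, and over arrays left out 3 to 9 in lung, 0 to 3 in brain stem and 1 to 2 in heart. Between tissues at 1 h the count was 0 without arrays that stood apart. The cause of these shifts was not tested, apart from the use of fewer arrays or other controls. Of 396 recomputed median effects, 380 moved by less than the spread between rats. In lung at 24 h the median was -0.15 without Rat341, and in olfactory bulb at 6 h 0.10 without Rat381. Groups of 4 rats and dim probe sets limit what could be called.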
